A study of Arabidopsis thaliana with 38 samples.

Results

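The cyclin and cyclin-dependent kinase (CDK) genes of Arabidopsis were followed in seeds of Col-0, the wild type, and *vel3-1*, a line with a T-DNA insertion in *VEL3*. The genes were taken by their annotation, as every row whose text held the word cyclin, leaving out tetracycline transporters. This gave 85 of 26925 listed genes in globular seeds and the same 85 of 26925 in endosperm after 24 h of imbibition (24HAI). Of the 640 genes listed for mature endosperm after 1 h of imbibition, 3 were members. RNA-seq libraries came from whole seeds at the globular stage, 8 days after pollination, and from endosperm at the other stages, all from seeds set at 16 °C. There were 3 libraries per genotype and stage, made from pooled plants of 1 mutant allele. Values are TPM, a read level per unit of gene length and per library, and the listed values summed to 790391 to 892760 TPM in globular libraries.

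By name and text the members were 20 mitotic cyclins (10 of A type and 10 of B type), 10 D-type cyclins, 24 other cyclins, 9 CDKs, 6 CDK inhibitors, 2 proteins that bind CDKs, 6 relatives of the transcription factors TFIIB and Brf1, 3 F-box genes and 5 genes matched only by words such as recycling. The last 14 are neither cyclins nor CDKs, and the 5 matched by such words alone are the regulators *CDF1*, *CDF2* and *CDF3*, the ribosome recycling factor *RRF* and AT3G01800. Among the 24 other cyclins AT1G70620 and AT3G19650 are annotated only as cyclin-related, and AT2G01310 entered only through the text of its best protein match. Not every gene of that class need therefore be a cyclin. Members lay on all 5 nuclear chromosomes, with 23, 14, 17, 8 and 23 on chromosomes 1 to 5.

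Cyclins bind CDKs and give them activity and substrate choice. D-type cyclins drive entry into the cycle through the retinoblastoma protein, A-type cyclins act in DNA replication and G2, and B-type cyclins act in mitosis. KRP and SIAMESE proteins inhibit the kinase, and depending on their level they can favour endoreduplication, in which cells replicate DNA without dividing. Cyclins of the C, H, L and T types pair with CDKs that act on RNA polymerase II. The endosperm of Arabidopsis divides as a syncytium before it forms cells, and it does not divide again in the imbibed seed before the root emerges.

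In plants the genes of mitosis share the short element AACGG, the core that MYB3R factors bind, and genes of DNA replication share the E2F element TTTNNCGC. Both were searched on both strands in the 250 bases upstream of each gene start (TAIR10.1, RefSeq). AACGG was found in 20.6% of the 26714 upstream windows of listed genes, and 3.62% held it at least 2 times. It was found in 10 of the 20 mitotic cyclins, each with at least 2 matches, among them 6 of the 10 B-type cyclins. Of the 10 D-type cyclins 1 held it. *KRP1* held 6 matches, the most among the members, and *KRP7* held 3. *SIM*, *CKS1* and *MEE65*, whose values are described below with those of *KRP1*, held none. TTTNNCGC was found in 5.88% of all windows and in 1 of the 20 mitotic cyclins, *CYCA1;2*, whose 2 matches overlap on opposite strands. These are descriptions of letters in a window and not of bound sites.

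The windows of *KRP1* and *SIM* are shown because these inhibitors differed between the genotypes at both stages. Those of 3 further genes are examples of mitotic cyclins that hold AACGG, as 10 of the 20 do. Each is written 5′ to 3′ toward the gene start, and capitals mark AACGG, its complement CCGTT or the E2F element.
KRP1 (chr2:9978091-9978340, minus strand): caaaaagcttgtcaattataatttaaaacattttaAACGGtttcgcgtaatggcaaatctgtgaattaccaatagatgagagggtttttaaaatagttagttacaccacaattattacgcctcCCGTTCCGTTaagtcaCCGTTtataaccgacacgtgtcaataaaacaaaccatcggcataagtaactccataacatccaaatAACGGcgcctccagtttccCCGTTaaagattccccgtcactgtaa
SIM (chr5:1267417-1267666, minus strand): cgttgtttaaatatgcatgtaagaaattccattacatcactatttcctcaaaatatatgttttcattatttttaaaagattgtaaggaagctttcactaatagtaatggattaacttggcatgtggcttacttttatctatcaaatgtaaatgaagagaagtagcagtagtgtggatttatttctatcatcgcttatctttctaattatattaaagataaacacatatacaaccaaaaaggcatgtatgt
CYCB1;1 (chr4:17624309-17624558, minus strand): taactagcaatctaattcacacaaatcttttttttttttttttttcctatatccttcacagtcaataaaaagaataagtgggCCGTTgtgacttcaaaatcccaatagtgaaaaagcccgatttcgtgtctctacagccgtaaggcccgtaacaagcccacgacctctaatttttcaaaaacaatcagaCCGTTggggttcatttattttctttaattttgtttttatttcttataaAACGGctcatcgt
CYCB1;2 (chr5:1861704-1861953, minus strand): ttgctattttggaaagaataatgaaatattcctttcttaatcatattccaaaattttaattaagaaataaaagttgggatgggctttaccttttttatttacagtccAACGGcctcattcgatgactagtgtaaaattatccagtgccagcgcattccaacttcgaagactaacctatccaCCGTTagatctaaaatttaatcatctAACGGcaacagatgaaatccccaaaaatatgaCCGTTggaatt
CYCA1;2 (chr1:29084286-29084535, minus strand): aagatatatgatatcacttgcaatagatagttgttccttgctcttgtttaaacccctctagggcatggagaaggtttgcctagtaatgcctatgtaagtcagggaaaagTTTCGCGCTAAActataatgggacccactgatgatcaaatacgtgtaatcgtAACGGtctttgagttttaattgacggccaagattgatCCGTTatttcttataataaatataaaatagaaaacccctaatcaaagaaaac

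Before the comparison, *VEL3* (AT2G18870) was read as a check of the labels. In globular seeds it had 1.34, 1.99 and 2.23 TPM in Col-0, against 9.79, 8.30 and 13 TPM in libraries labelled *vel3-1*. The directions below are therefore those of the libraries so labelled. TPM do not show whether these reads come from an intact transcript, and at 24HAI *VEL3* was at or near 0 in all 6 libraries. Replicate 3 of *vel3-1* in globular seeds stood apart. The 4212 nuclear genes listed at 0 in every 24HAI library had a median of 10.0 TPM in it and of 0.317 to 1.43 TPM in the other 5. The median log2 difference over all genes was 0.50 as deposited, 0.14 without this library, 0.10 after median-ratio scaling and -0.21 after subtraction of the median of these genes from each library. The 454 genes higher and 98 lower in *vel3-1* became 154 and 74 after that subtraction.

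This library touched the members in the same way. It held the highest of the 6 values for 66 of the 85 members (77.6%), against 67.6% of all listed genes. The 17 members with a Col-0 mean under 1 TPM lay between 5.61 and 15.6 TPM in it and between 0 and 2.84 TPM in the other 5 libraries. They include the 3 F-box genes, whose values are therefore given here only as listed. As deposited, 74 of 85 members had a positive difference and 11 a negative one, with a median of 0.38. After median-ratio scaling the split was 42 to 43 and the median -0.00, and without the library it was 39 to 32 among the 71 members still tested, with a median of 0.03.

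**Figure D1:**
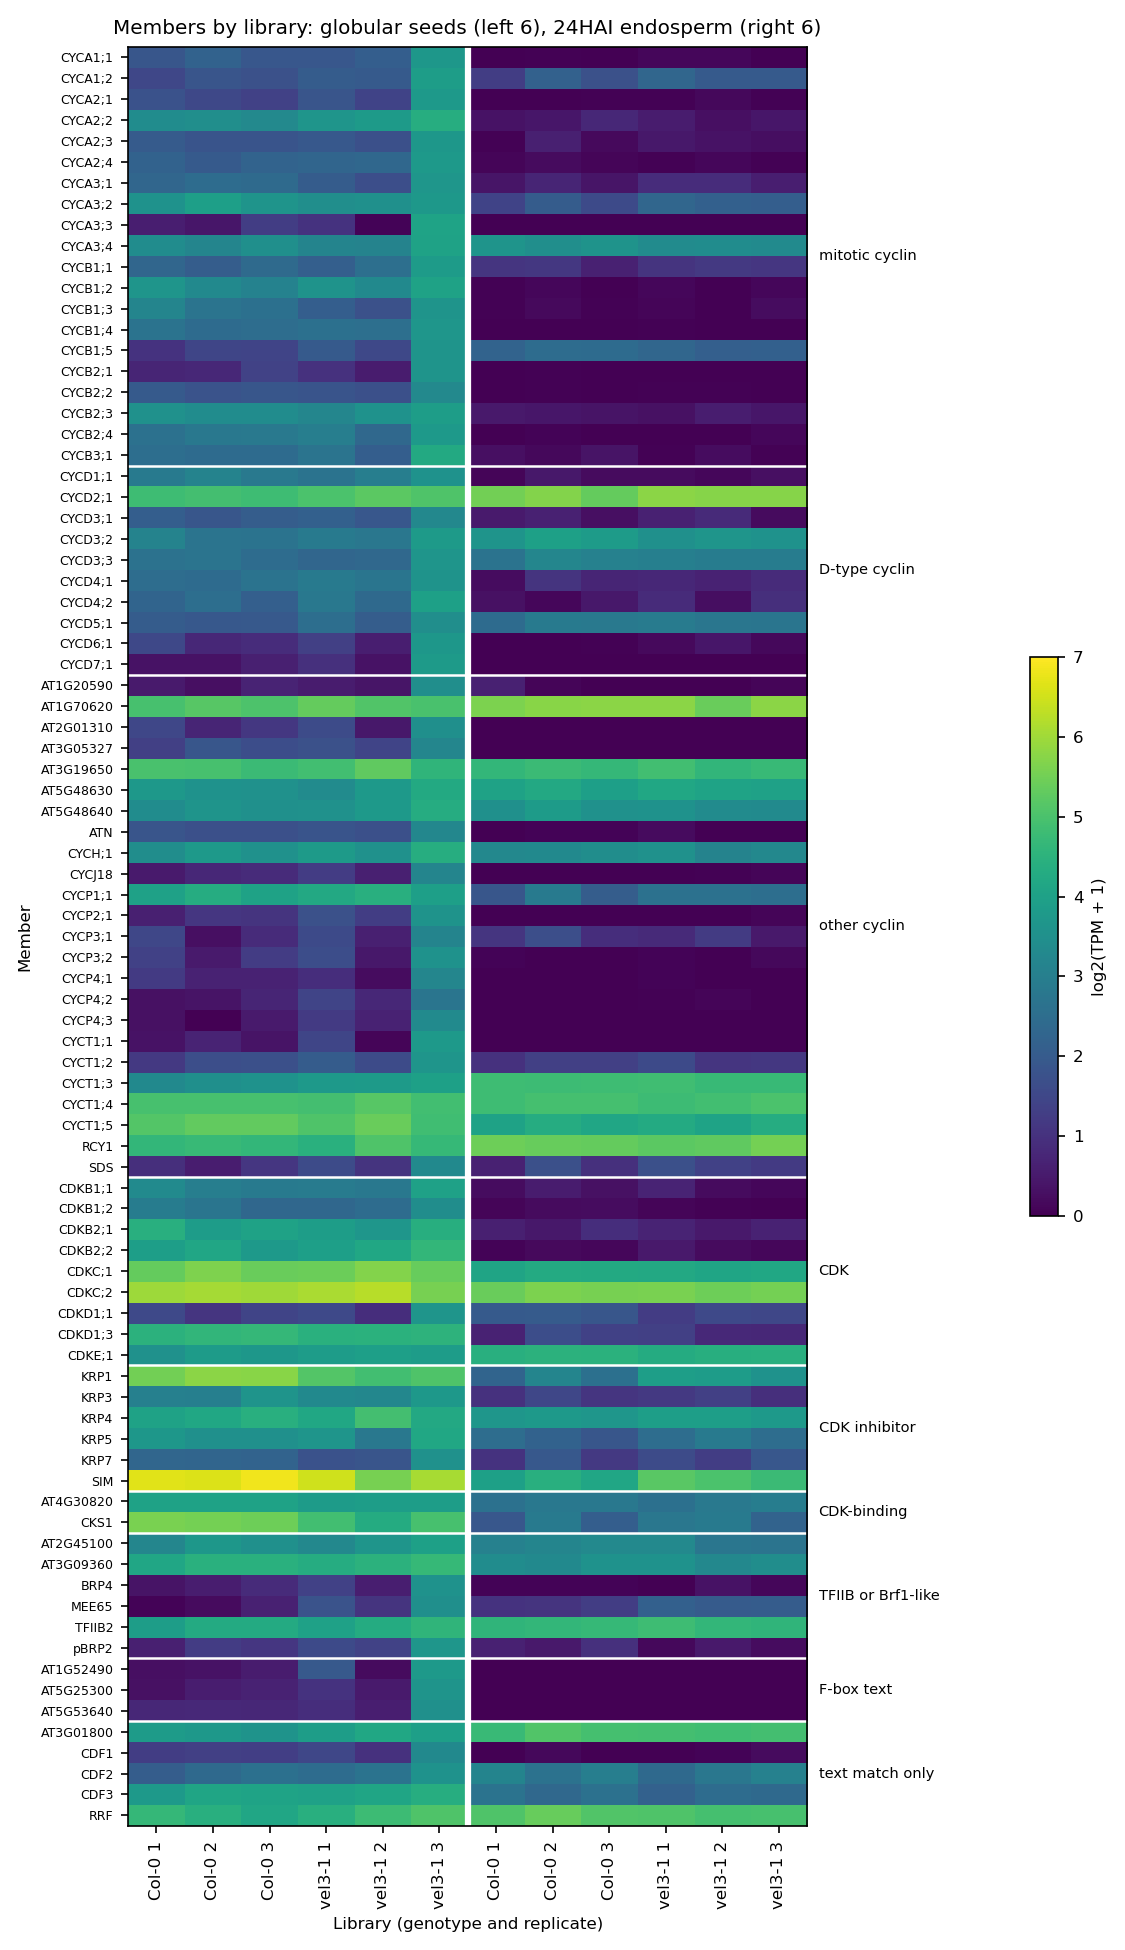
TPM of the 85 members on the scale log2(TPM + 1), one row per member grouped by class and one column per library, with globular seeds on the left and 24HAI endosperm on the right. Replicate 3 of *vel3-1* in globular seeds is lighter (higher) than the other 5 for most low members, and most mitotic cyclins and the CDKB rows are dark (low) at 24HAI.

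In globular seeds no member was called, which means an adjusted p under 0.05 from limma and at least a 2-fold difference. The background was 1.71% of 26593 genes called higher and 0.369% called lower. At an adjusted p under 0.05 with no fold minimum, 3 of the 85 members were lower in *vel3-1*, *CKS1*, *KRP1* and *SIM*, against 1.01% of all genes, and none was higher, against 2.21%. At an unadjusted p under 0.05 there were 4 of 85, against 2995 of all 26593 genes, the fourth being an A-type cyclin with a difference of 0.55. The fit by limma without the trend of the variance gave no gene of the whole table at an adjusted p under 0.05. Between the genotypes, libraries did not overlap for 15 members higher in *vel3-1* (17.6%, against 19.8% of all listed genes) and 4 lower (4.71%, against 3.93%). None of the 3 passed with no filter on low genes, with median-ratio scaling or after background subtraction, and the members' non-overlapping shares lay near those of all genes. With median-ratio scaling the log2 differences were -1.08 for *KRP1*, -1.10 for *SIM* and -1.23 for *CKS1*, with limma adjusted p of 0.158, 0.313 and 0.0512.

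At 24HAI 43 members reached a mean of 1 TPM and were tested, and *KRP1* alone was called, as higher in *vel3-1*. That is 1 of 43, against 1.7% of 15918 genes called higher and 0.697% called lower. With no fold minimum *KRP1*, *MEE65* and *SIM* were higher, 3 of 43 against 4.66% of all genes, and none was lower, against 2.94%. With no filter on low genes *KRP1* (adjusted p = 0.149 from limma) and *SIM* (adjusted p = 0.116) did not pass. Libraries did not overlap for 8 of the 85 members higher in *vel3-1*, against 9.88% of listed genes, and for 5 lower, against 9.76%. The median difference of the members tested was 0.00, and that of all genes -0.00.

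Of the 6 CDK inhibitors *KRP1* and *SIM* passed an adjusted p of 0.05 at both stages, lower in *vel3-1* globular seeds and higher at 24HAI. *KRP1* (AT2G23430, chromosome 2 from 9976590 to 9978090, minus strand) encodes an inhibitor of the KIP type. In globular seeds it had 44.8, 53.6 and 52.9 TPM in Col-0, against 34.1, 28.3 and 32.5 TPM in *vel3-1*. The groups did not overlap, with a log2 difference of -0.66 ± 0.19 (SE, limma adjusted p = 0.0154). Without *vel3-1* replicate 3 it was -0.68 (limma adjusted p = 0.0472), as large as with it. After background subtraction it was -0.84 with an adjusted p of 0.335, and leaving out Col-0 replicate 1, 2 or 3 gave adjusted p from 0.069 to 0.299.

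At 24HAI *KRP1* had 3.79, 8.06 and 4.94 TPM in Col-0, against 14.1, 13.5 and 10.8 TPM in *vel3-1*. All *vel3-1* libraries lay above all Col-0 libraries, and the log2 difference was 1.11 ± 0.22 (SE, limma adjusted p = 0.0212). The call depended on single libraries, and the only member called without Col-0 replicate 3 was *MEE65*. Without Col-0 replicate 1 the difference was 0.91, under 2-fold, and without *vel3-1* replicate 1, 2 or 3 or Col-0 replicate 3 the adjusted p lay between 0.0524 and 0.097. Without Col-0 replicate 2, the Col-0 library nearest to *vel3-1*, the difference was 1.37 (limma adjusted p = 0.000472).

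*SIM* (AT5G04470, chromosome 5 from 1266625 to 1267416, minus strand) encodes SIAMESE, which blocks mitosis in endoreduplicating trichomes. It was the highest member in globular seeds, with 102, 97.3 and 115 TPM in Col-0, against 89.5, 46.3 and 66.9 TPM in *vel3-1*. The groups did not overlap, but replicate 1 of *vel3-1* lay close to Col-0. The log2 difference was -0.67 ± 0.20 (SE, limma adjusted p = 0.0225), and -0.69 with an adjusted p of 0.17 without *vel3-1* replicate 3. Without *vel3-1* replicate 2, its lowest library, the difference was -0.43 (limma adjusted p = 0.0988), and without any 1 of the Col-0 libraries the adjusted p lay between 0.137 and 0.356.

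At 24HAI *SIM* had 14.8, 20.5 and 16.7 TPM in Col-0, against 36.1, 31.1 and 26.1 TPM in *vel3-1*. Every *vel3-1* library was above every Col-0 library, with a log2 difference of 0.81 ± 0.15 (SE, limma adjusted p = 0.0152), which is under 2-fold. Leaving out Col-0 replicate 3 or *vel3-1* replicate 1 or 2 gave adjusted p from 0.0651 to 0.0765. A gene on the opposite strand, AT5G04475, overlaps *SIM* by 338 bp in TAIR10.1, and the authors counted sense reads.

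The remaining inhibitors did not pass the test at either stage. *KRP4* had a mean of 17.6 TPM in Col-0, against 21.2 TPM in *vel3-1* globular seeds, with overlap, and 11.8 to 12.7 and 12.9 to 14.2 TPM at 24HAI. *KRP3*, *KRP5* and *KRP7* lay between 2.40 and 16.9 TPM in globular seeds and between 0.914 and 6.25 TPM at 24HAI. Summed over the 6 inhibitors, globular Col-0 libraries had 186, 189.6 and 213 TPM and *vel3-1* 164, 120.5 and 157 TPM. At 24HAI the sums were 37.1, 49.5 and 38.5 TPM in Col-0, against 72.4, 68.0 and 58.1 TPM in *vel3-1*. The sums did not overlap at either stage, lower in *vel3-1* globular seeds and higher at 24HAI, and *KRP1* and *SIM* made up most of them.

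**Figure D2:**
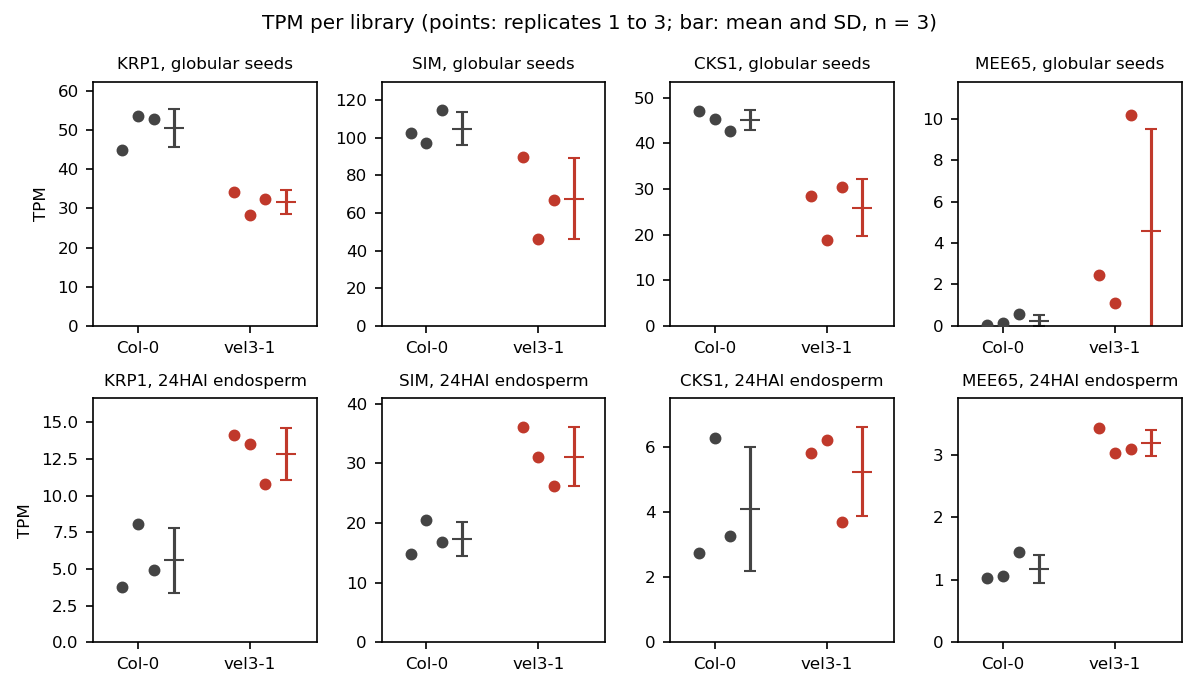
TPM of *KRP1*, *SIM*, *CKS1* and *MEE65* in each library of Col-0 and *vel3-1*, with globular seeds above and 24HAI endosperm below, points for replicates 1 to 3 and bars for the mean and SD (n = 3). *KRP1* and *SIM* lie lower in *vel3-1* in the upper row and higher in the lower row, and *MEE65* at the globular stage is set apart by the 10.2 TPM of *vel3-1* replicate 3.

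Whether the genotype difference itself differed between the stages was tested for *KRP1* and *SIM* in 1 limma fit of the 12 libraries, chosen after their opposite directions were seen. It covered 15813 genes that reached 1 TPM on average at both stages, of which 1.01% passed an adjusted p of 0.05, and 2 of the 43 members did. The difference at 24HAI minus that in globular seeds on the log2 scale was 1.77 ± 0.29 for *KRP1* (SE, limma adjusted p = 0.012) and 1.48 ± 0.30 for *SIM* (SE, limma adjusted p = 0.0369). Without *vel3-1* replicate 3 of globular seeds these were 1.79 (limma adjusted p = 0.00521) and 1.50 (limma adjusted p = 0.0177). The stages are different tissues in separately scaled tables, so the fit compares the genotype differences and not the levels.

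Marker genes also moved with the genotype, and their part in these differences was not tested. In globular seeds the 5 markers of developing endosperm summed to 42.3 to 52.5 TPM in Col-0, against 131 to 211 TPM in *vel3-1*. *PHE1* had 20.0 to 27.5 against 75.0 to 166 TPM, *YUC10* 2.47 to 3.98 against 22.1 to 28.0 TPM and *AGL62* 1.25 to 3.14 against 9.27 to 12.2 TPM. The libraries of *EDE1* overlapped, and *ZOU* went down, with 12.7 to 15.7 against 5.32 to 10.5 TPM. These markers did not move together, so their sum cannot stand for the amount of endosperm. The 5 seed coat markers ranged from 594 to 658 TPM in Col-0 and from 379 to 748 TPM in *vel3-1*, and the 7 embryo markers from 108 to 121 and from 113 to 139.8 TPM. At 24HAI the 3 markers of imbibed endosperm, nearly all from *EPR1*, summed to 16558.5 TPM or more in every library. The endo-mannanase gene *MAN7* had 15.7, 58.7 and 28.4 TPM in Col-0, against 114, 87.0 and 76.6 TPM in *vel3-1*. *EXPA2* had 67.6, 423 and 153 TPM against 412, 268 and 216 TPM, with overlap (limma adjusted p = 0.461). *EPR1* differed by 0.07 on the log2 scale (limma adjusted p = 0.885). The embryo markers summed to 68.6 to 83.1 TPM in Col-0 and 51.8 to 55.3 TPM in *vel3-1*, with 4 of the 7 under 1 TPM in Col-0. Much of this difference was *WOX2*, with 31.9 to 41.0 against 19.7 to 21.9 TPM, a gene that averaged 1.27 TPM in globular Col-0. *ATML1* and *PLT1* were also lower without overlap, *STM* and *WOX5* were higher at under 1 TPM, and *SCR* and *PLT2* overlapped. The developing endosperm markers summed to at most 1.82 TPM and the seed coat markers to at most 13.3 TPM, most of it *BAN*. No marker was at 0 in all 6 libraries of a stage. In such bulk samples fewer cells of a type and less RNA per cell cannot be told apart.

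*CKS1* (AT2G27960, chromosome 2 from 11910569 to 11911802, minus strand) encodes the small subunit that docks CDKs to their substrates. In globular seeds it had 47.0, 45.4 and 42.7 TPM in Col-0, against 28.4, 18.8 and 30.4 TPM in *vel3-1*. No library of one genotype reached the other, and the log2 difference was -0.80 ± 0.19 (SE, limma adjusted p = 0.00104), the smallest p of any member. Without *vel3-1* replicate 3 it was -0.93 (limma adjusted p = 0.0177). Without Col-0 replicate 1 the adjusted p was 0.0556, and after background subtraction the difference was -1.01 with an adjusted p of 0.174. At 24HAI *CKS1* had 2.73, 6.25 and 3.25 TPM in Col-0, against 5.81, 6.21 and 3.69 TPM in *vel3-1*, and the genotypes overlapped. AT4G30820, annotated as an assembly factor of the CDK-activating kinase, had 15.2 to 15.3 TPM in Col-0, against 13.5 to 14 TPM in *vel3-1* globular seeds. Its groups did not overlap but differed by only -0.14 (limma adjusted p = 0.679).

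**Figure D3:**
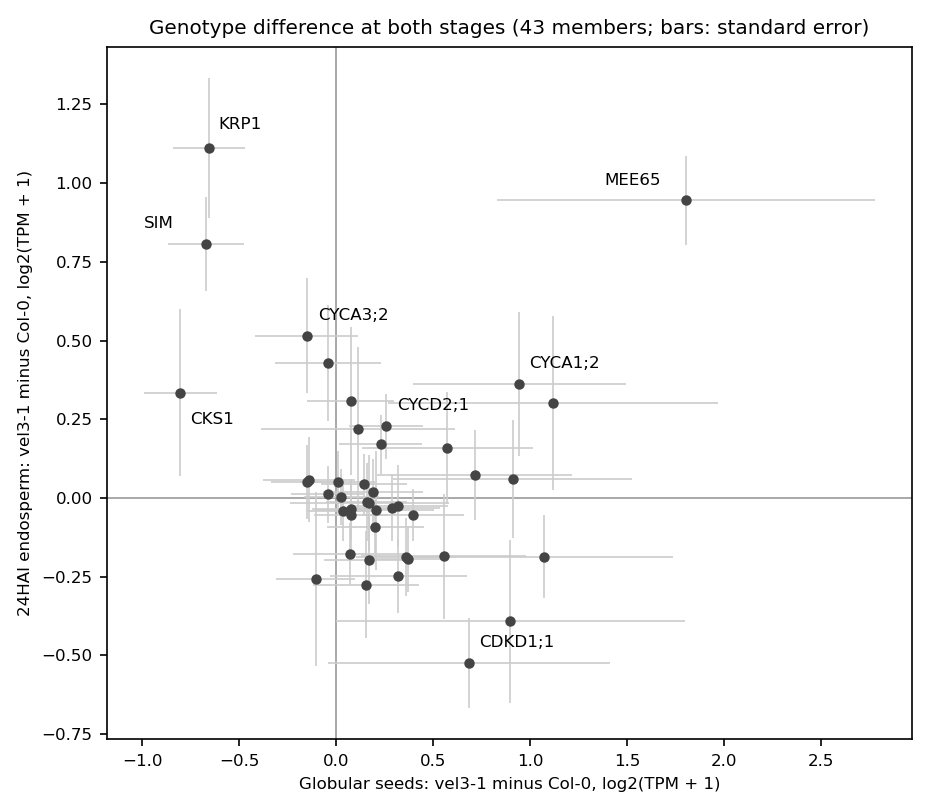
Difference between *vel3-1* and Col-0 on the log2(TPM + 1) scale in globular seeds (horizontal axis) and 24HAI endosperm (vertical axis) for the 43 members tested at both stages, with standard errors as bars. *KRP1* at -0.66 and 1.11 and *SIM* at -0.67 and 0.81 lie at the upper left, and *MEE65* at 1.80 and 0.95 lies at the upper right with a wide bar for globular seeds.

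Mitotic cyclins were present in globular seeds and mostly near 0 at 24HAI, in both genotypes. Their summed level in globular seeds was 102, 98.5 and 97.0 TPM in Col-0, against 98.4, 91.5 and 266 TPM in *vel3-1*, the last from replicate 3. At 24HAI the sums were 20.6, 24.8 and 22.2 TPM in Col-0, against 24.7, 22.8 and 21.9 TPM in *vel3-1*, and the groups overlapped. In globular Col-0 18 of the 20 had a mean of at least 1 TPM, while at 24HAI 4 did and 10 were under 0.1 TPM. None of the 20 was called at either stage.

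The B-type cyclin *CYCB1;2* had 11.5, 9.09 and 7.52 TPM in Col-0, against 11.2, 9.09 and 15.4 TPM in *vel3-1* globular seeds, and at most 0.0945 TPM in any 24HAI library. *CYCB1;1*, another B-type cyclin, had 3.97, 3.17 and 4.36 TPM against 3.33, 4.92 and 13.3 TPM in globular seeds. It kept 0.559 to 1.22 TPM at 24HAI. *CYCB1;5* went the other way, with 1.02 to 1.76 TPM in globular Col-0 and 3.65 to 4.6 TPM in 24HAI Col-0. It was the highest B-type cyclin of that stage and overlaps AT1G06757 on the opposite strand by 347 bp. *CYCB1;3*, picked after its values were seen, had 8.16, 5.48 and 5.01 TPM in Col-0, against 3.27, 2.35 and 11.3 TPM in *vel3-1* globular seeds. Its log2 difference was -0.34 over all libraries and -0.91 without *vel3-1* replicate 3 (limma adjusted p = 0.0522).

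Among A-type cyclins *CYCA2;2* had 9.69, 10.0 and 8.86 TPM in Col-0, against 11.5, 13 and 19.6 TPM in *vel3-1* globular seeds. The groups did not overlap, with a log2 difference of 0.55 (limma adjusted p = 0.393). It was 0.33 without *vel3-1* replicate 3 (limma adjusted p = 0.24) and 0.22 after background subtraction. *CYCA3;2*, *CYCA3;3* and *CYCA3;4* lie side by side on chromosome 1, 761 and 1376 bp apart on the same strand, and their levels differed widely. The first had 10.8, 14.6 and 11.4 TPM in globular Col-0 and 10.0, 10.3 and 12.3 TPM in *vel3-1*. The second had 0.35 to 1.42 TPM in globular Col-0 and was listed at 0 in all 24HAI libraries. The last had 8.14 to 10.3 TPM in globular Col-0 and 9.92 to 11.4 TPM in 24HAI Col-0, and was the highest mitotic cyclin of that endosperm. How reads shared by such close copies were divided was not tested.

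At 24HAI *CYCA3;2* had 1.65, 3.10 and 1.96 TPM in Col-0, against 3.96, 3.45 and 3.26 TPM in *vel3-1*. The groups did not overlap, but the log2 difference of 0.52 ± 0.18 (SE) did not pass, with an adjusted p of 0.14 from limma. Without Col-0 replicate 2 it was 0.70 (limma adjusted p = 0.0128), and without Col-0 replicate 1 it was 0.38. Leaving out any 1 of the 5 libraries other than Col-0 replicate 2 gave limma adjusted p from 0.248 to 0.389. *CYCA3;4* had 11.4, 9.92 and 11 TPM in Col-0, against 9.37, 9.57 and 9.26 TPM in *vel3-1*, a log2 difference of -0.18 (limma adjusted p = 0.345). *CYCA1;2*, a cyclin of male meiosis, had 1.42 to 3.53 TPM in Col-0, against 2.95 to 3.96 TPM in *vel3-1*, and the groups overlapped.

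D-type cyclins had summed levels of like size in the 2 tissues. In globular seeds the sums were 63.5, 63.3 and 59.4 TPM in Col-0, against 69.9, 69.9 and 138 TPM in *vel3-1*. At 24HAI they were 66.9, 82.8 and 67.7 TPM in Col-0, against 80.8, 77.9 and 77.2 TPM in *vel3-1*. *CYCD2;1* led at both stages, with 27.4, 29.0 and 27.2 TPM in Col-0, against 31.4, 36.4 and 32.8 TPM in *vel3-1* globular seeds. At 24HAI it had 44.8, 51.1 and 39.5 TPM in Col-0, against 54.3, 52.0 and 52.0 TPM in *vel3-1*. It lay higher in all *vel3-1* libraries at both stages, by 0.26 (limma adjusted p = 0.548) and 0.23 (limma adjusted p = 0.246) on the log2 scale, and passed the test at neither. Without Col-0 replicate 2 the difference at 24HAI was 0.32 (limma adjusted p = 0.0361), and without Col-0 replicate 3 it was 0.14 (limma adjusted p = 0.651).

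*CYCD3;2* and *CYCD3;3*, which promote division in growing leaves, had 10.4 to 14.8 and 5.31 to 8.34 TPM over the 24HAI libraries, and *CYCD5;1* had 4.48 to 6.51 TPM. *CYCD1;1* had 6.18 to 7.79 TPM in globular Col-0 and at most 0.36 TPM at 24HAI. The other 5 D-type cyclins were at most 1.06 TPM in every 24HAI library, and *CYCD7;1* was listed at 0 in all of them. None of the 10 was called at either stage.

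The CDKs of mitosis were near 0 at 24HAI, and those of transcription were not. The 4 members of the CDKB family, which is particular to plants and acts from G2 to mitosis, summed to 50.2, 43.0 and 38.5 TPM in Col-0, against 38.9, 39.5 and 68.6 TPM in *vel3-1* globular seeds. At 24HAI their sum was at most 1.72 TPM in any library. The 5 CDKs of the C, D and E types summed to 136, 153 and 143 TPM in globular Col-0 and 146, 163 and 134 TPM in *vel3-1*. At 24HAI they kept 81.2, 93.6 and 89.2 TPM in Col-0, against 86.9, 81.9 and 85.6 TPM in *vel3-1*.

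*CDKC;2*, a kinase of the polymerase II tail, was the highest CDK at both stages, with 62.1 to 65.9 TPM in globular Col-0 and 41.3 to 48.1 TPM in 24HAI Col-0. *CDKC;1* had 39.6 to 48.8 and 15.9 to 18.6 TPM, and the Mediator kinase *CDKE;1* had 10.7 to 13.5 and 20.5 to 21.7 TPM. Of the CDK-activating kinases, *CDKD1;3* had 21.5 to 24.5 TPM in globular Col-0 and 0.584 to 2.17 TPM at 24HAI. *CDKD1;1* had 2.98, 3 and 2.68 TPM in 24HAI Col-0 and 1.38, 1.94 and 1.82 TPM in *vel3-1*. Its groups did not overlap, with a log2 difference of -0.52 ± 0.14 (SE), which did not pass the test (limma adjusted p = 0.0637). No CDK was called at either stage.

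**Figure D4:**
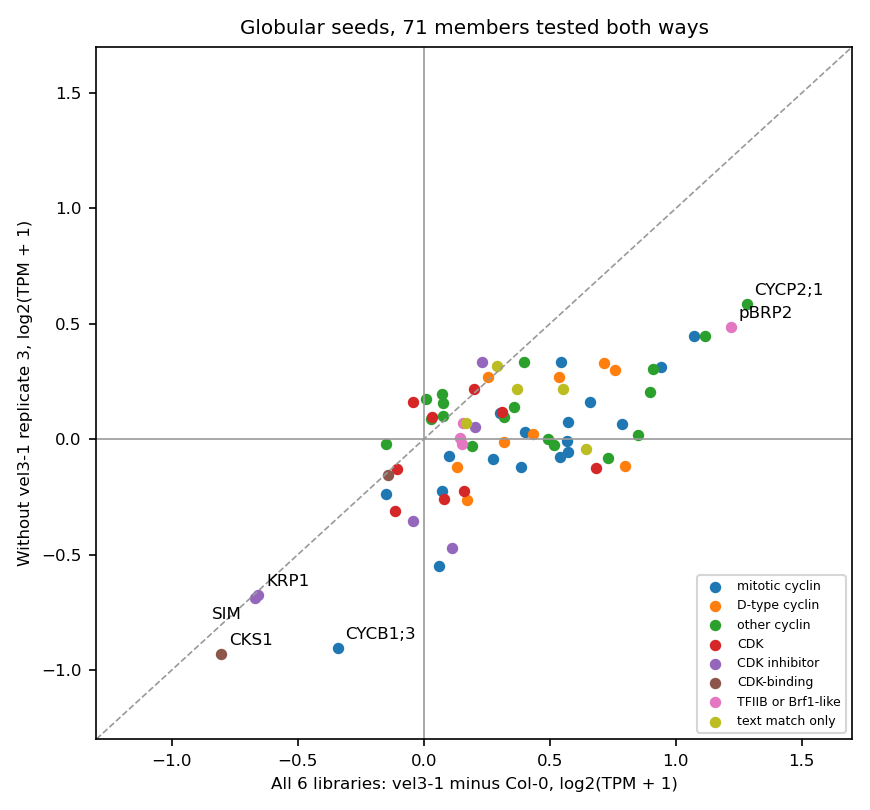
Log2 difference of 71 members in globular seeds over all 6 libraries (horizontal axis) and without *vel3-1* replicate 3 (vertical axis), both on the log2(TPM + 1) scale and coloured by class, with a dashed line where the values are equal. Most members move down toward 0 on the vertical axis, while *KRP1* (-0.66 and -0.68) and *SIM* (-0.67 and -0.69) stay on the line.

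Among the T-type cyclins, which pair with kinases of transcription, *CYCT1;4* had 29.9 to 30.5 TPM in globular Col-0 and 27.5 to 29.6 TPM in 24HAI Col-0, with log2 differences of 0.03 and 0.00 between the genotypes. The former was -0.18 after background subtraction. *CYCT1;3*, picked after its values were seen, had 9, 10.2 and 10.8 TPM in Col-0, against 12.7, 13 and 14.8 TPM in *vel3-1* globular seeds, without overlap. Its log2 difference of 0.40 (limma adjusted p = 0.546) was 0.33 without *vel3-1* replicate 3 and -0.10 after background subtraction. *CYCT1;5* had 33.7 to 39.2 and 15.4 to 19.3 TPM in Col-0, and the L-type cyclin *RCY1* had 23.8 to 25.2 and 40.0 to 42.5 TPM. AT1G70620, annotated as cyclin-related, had 30.5 to 35.3 and 48.1 to 53.7 TPM. AT5G48630 and AT5G48640, a tandem pair 80 bp apart on chromosome 5, each lay between 9.27 and 19 TPM in the 12 libraries of both stages. None of the 24 other cyclins was called, and 4 of them were listed at 0 in all 24HAI libraries.

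P-type cyclins, relatives of a yeast cyclin of phosphate signalling, gave 3 of the 5 largest positive differences among members whose globular libraries did not overlap. *CYCP4;3* had 0.247, 0 and 0.417 TPM in Col-0, against 1.30, 0.596 and 9.26 TPM in *vel3-1*. *CYCP2;1* had 0.533, 1.14 and 1.08 TPM against 2.33, 1.43 and 11.2 TPM, and *CYCP4;2* 0.243, 0.303 and 0.655 TPM against 1.7, 0.702 and 5.61 TPM. Their log2 differences of 1.47, 1.28 and 1.17 rest largely on replicate 3 of *vel3-1*, and none passed the test. Without that library the difference of the gene with 11.2 TPM was 0.58, and the others were under the minimum of 1 TPM. At 24HAI all 3 were at or under 0.065 TPM.

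*MEE65* (AT2G01280, chromosome 2 from 145676 to 149394, plus strand) is annotated with a cyclin fold and belongs to the Brf1 family of RNA polymerase III factors. At 24HAI it had 1.03, 1.07 and 1.44 TPM in Col-0, against 3.42, 3.03 and 3.10 TPM in *vel3-1*. The groups lay far apart for their spread, with a log2 difference of 0.95 ± 0.14 (SE, limma adjusted p = 0.00608), which held an adjusted p under 0.05 in all 12 alternatives that could be run. It misses 2-fold on the scale with a pseudocount of 1 TPM and reached 1.37 with 0.1 TPM. In globular seeds it had 0.058, 0.145 and 0.557 TPM in Col-0, against 2.43, 1.09 and 10.2 TPM in *vel3-1*, again without overlap. There the log2 difference of 1.80 ± 0.98 (SE) had an adjusted p of 0.481, and without *vel3-1* replicate 3 the gene was under the minimum of 1 TPM. A gene on the same strand, AT2G03925, overlaps it by 520 bp in TAIR10.1, so the source of its reads is uncertain.

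Of the other TFIIB and Brf1 relatives, *TFIIB2* had 13.8 to 18.6 TPM in globular Col-0 and 22.7 to 24.7 TPM in 24HAI Col-0, and AT3G09360 had 16.8 to 20.8 and 8.91 to 10.9 TPM. AT2G45100 had 8.26 to 12.1 and 7.40 to 8.83 TPM. *pBRP2*, a TFIIB relative of seeds, had 0.545, 1.36 and 1.17 TPM in Col-0, against 1.97, 1.63 and 11.9 TPM in *vel3-1* globular seeds. At 24HAI it had 0.564, 0.390 and 0.957 TPM in Col-0, against 0.112, 0.384 and 0.171 TPM in *vel3-1*. It was thus higher in *vel3-1* at the first stage, at a log2 difference of 1.22 (limma adjusted p = 0.536), and lower at the second, where it was too low to be tested. Without *vel3-1* replicate 3 the first difference was 0.48 (limma adjusted p = 0.489).

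The F-box genes AT1G52490, AT5G25300 and AT5G53640 lay under 0.8 TPM in globular Col-0 and were listed at 0 in all 24HAI libraries. Of the genes matched by other words, *RRF* had 16.6 to 24.3 TPM in globular Col-0. It had 32.8, 40.4 and 33.0 TPM in Col-0 against 32.5, 29.5 and 30.3 TPM in *vel3-1* at 24HAI, a log2 difference of -0.19 (limma adjusted p = 0.331), and of -0.10 without Col-0 replicate 2. AT3G01800 had 11 to 13.3 and 25.5 to 33.2 TPM in Col-0. The flowering regulator *CDF3* had 12.9 to 16.3 TPM in globular Col-0, and its relative *CDF2* 5.29 to 7.97 TPM in 24HAI Col-0.

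In mature endosperm after 1 h of imbibition the deposited values cover a selection of 640 genes, each with a higher mean in *vel3-1*, so the 3 members there are described with no test. The log2 ratio of the means lay between 0.85 and 1.14 for all 640. The selection thus fixed the direction and rough size of each difference there. *KRP1* had 0.524, 0.301 and 0.463 TPM in Col-0, against 0.723, 0.817 and 0.783 TPM in *vel3-1*. These levels lay far below those of globular seeds. *CYCA1;2* had 0.0714, 0.376 and 0.0350 TPM in Col-0, against 0.562, 0.229 and 0.233 TPM in *vel3-1*. *CYCA3;1* was listed at 0 in 4 of the 6 libraries and reached at most 0.0769 TPM.

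Beside the members, 36 genes of the cell cycle outside the rule were read from a list. In globular seeds 1 of 36 was called, *DEL2*, as higher in *vel3-1*, against 1.71% of all genes tested. This atypical E2F repressor had 6.60, 6.53 and 6.21 TPM in Col-0, against 15.5, 17.9 and 22.9 TPM in *vel3-1*. Its log2 difference was 1.39 ± 0.27 (SE, limma adjusted p = 2.07e-05), and 1.25 without *vel3-1* replicate 3 (limma adjusted p = 0.000771). *SMR1*, a relative of *SIM*, had 103, 125 and 119 TPM in Col-0, against 84.8, 63.4 and 59.2 TPM in *vel3-1*. It was lower without overlap, as were *SIM* and *KRP1*, with a log2 difference of -0.75 (limma adjusted p = 0.00783, and 0.0886 without *vel3-1* replicate 3). With median-ratio scaling or a minimum of 5 TPM no gene of the list was lower at an adjusted p under 0.05. At 24HAI *SMR1* had 6.14 to 7.58 and 6.61 to 8.97 TPM, and the groups overlapped. *CDKA;1*, the main CDK of the cycle, had 24.7 to 30.9 TPM in globular Col-0 and 23.3 to 33.4 TPM in *vel3-1*, and 34.9 to 43.6 and 40.8 to 46.5 TPM at 24HAI.

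At 24HAI 24 of the 36 were tested and none was called. Of the 10 genes of DNA replication on the list, which encode the MCM helicase, its loaders and PCNA, 9 were tested. *MCM4* and *MCM5* were higher in *vel3-1* at an adjusted p under 0.05, by less than 2-fold, against 4.66% of all genes tested. At an unadjusted p under 0.05 there were 6 of the 9, against 3466 of 15918 genes. *MCM4* had 1.83, 3.52 and 2.28 TPM in Col-0, against 5.71, 4.70 and 5.68 TPM in *vel3-1*, a log2 difference of 0.87 ± 0.18 (SE, limma adjusted p = 0.0267). *MCM5* had 1.97, 3.62 and 2.94 TPM against 7.15, 5.25 and 5.45 TPM, also 0.87 (limma adjusted p = 0.0285). The libraries of 7 of the 10 did not overlap, all 7 higher in *vel3-1*, against 9.88% of all listed genes. The median difference of the 9 was 0.87, against -0.00 for all genes. In globular seeds the same genes had 4.18 to 68.6 TPM in Col-0 on average, and their median difference was -0.10, against 0.50 for all genes. Most of that gap went with *vel3-1* replicate 3 and low genes. Without this library the medians were -0.02 and 0.14, and with a minimum of 5 TPM they were -0.10 and 0.13.

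These calls moved with 1 library. Replicate 2 of Col-0 was the highest Col-0 library for 10 of the 10 replication genes, 5 of the 6 CDK inhibitors and 29 of the 43 members tested, against 60.6% of all genes tested. Without it 8 of the 9 replication genes passed an adjusted p of 0.05, against 2935 of all 15847 genes tested. With all libraries 2 of the 9 passed, against 1209 of 15918 genes, so passing genes became more frequent over the whole table too. Without Col-0 replicate 3 or any 1 of the *vel3-1* libraries none passed, and without Col-0 replicate 1 there was 1. None passed with the replicate number as a block or with no filter on low genes.

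**Figure D5:**
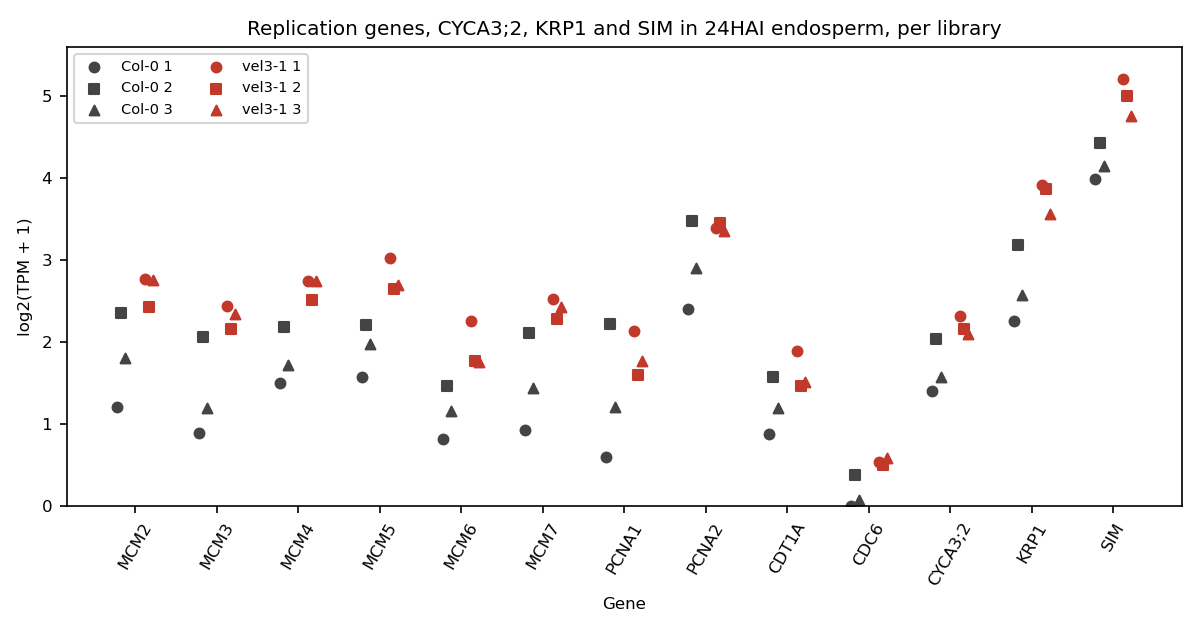
Levels of 10 DNA replication genes, the A-type cyclin *CYCA3;2* and the inhibitors *KRP1* and *SIM* in each 24HAI library on the scale log2(TPM + 1), in grey for Col-0 and red for *vel3-1* with 1 symbol per replicate. The *MCM* genes, the cyclin, *KRP1* and *SIM* lie higher in all *vel3-1* libraries, and Col-0 replicate 2 (grey squares) is the Col-0 library nearest to *vel3-1*.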

How the data were processed

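The RNA-seq data comprised 18 libraries, 3 of each genotype (Col-0 and *vel3-1*) at 3 stages. Columns of globular seeds were assigned by genotype and stage and are numbered as their headers number them. The authors trimmed reads with cutadapt 1.9.1, mapped them to TAIR10 with STAR 2.5 and counted sense reads per gene with featureCounts. The authors deposited the values as TPM, and how TPM were made from counts is not given in the sources used here. Counts were not used, so depth per gene is unknown and values carry no counting interval. P-values rest on the spread between libraries. In the globular fit behind the calls, p-values and SE use the spread of genes of the same level and not that of the gene itself.

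TPM were read with Python 3.11.15, pandas 2.3.3 and numpy 2.4.6. Within each stage log2(TPM + 1) was compared by limma 3.58.1 in R 4.3.3 (two-sided, prior variance allowed to follow the mean level, no covariates) where a gene averaged 1 TPM or more, with Benjamini-Hochberg adjustment over all of them. Calls needed an adjusted p under 0.05 and a 2-fold difference. Differences on this scale understate the change of low genes. In globular seeds the trend takes the spread of a gene wholly from genes of the same level.

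Named members are those called, the 3 highest of each class at each stage, the 5 strongest differences of each sign without overlap per stage, and those listed for mature endosperm. *CYCB1;3* and *CYCT1;3* were added after their values were seen. The members and lists were chosen with earlier results of these data known. Alternatives were a pseudocount of 0.1 TPM, no filter, a minimum of 5 TPM, median-ratio scaling, no trend, no fold minimum, a replicate block, each library left out, background subtraction for globular seeds and no organelle genes for 24HAI. The fit of both stages was added after seeing the data. Plots were drawn with matplotlib 3.10.9. The 20 ChIP-seq samples were not used here.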

Additional observations from a re-analysis of the deposited data

Results flagged for a closer look

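*KRP1* and *SIM* differed between the genotypes in opposite directions at the 2 stages, and a test of that difference itself passed for both. The difference at 24HAI minus that in globular seeds was 1.77 for *KRP1* and 1.48 for *SIM* on the log2 scale, with 3 of 3 *vel3-1* libraries lower than all Col-0 libraries in globular seeds and 3 of 3 higher at 24HAI.

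*pBRP2* lay in opposite directions without overlap, with a *vel3-1* mean 4.13 TPM above that of Col-0 in globular seeds and a difference of -0.415 TPM at 24HAI. At 24HAI the gene was under the minimum of 1 TPM, and its lowest Col-0 and highest *vel3-1* libraries were nearly equal. In globular seeds *vel3-1* replicate 3 had 11.9 TPM, against 1.97 and 1.63 TPM in the other replicates, and without it the log2 difference was 0.48 (limma adjusted p = 0.489) in place of 1.22. For this gene the difference between the stages was not tested.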

How the results depend on the processing

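Among counts of called members, those in globular seeds stayed at 0 under every alternative except that with no fold minimum, where 3 were lower. The count of members higher at 24HAI was 1, and became 2 with a pseudocount of 0.1 TPM, 3 with no fold minimum and 0 with no filter on low values. With 1 library left out it ranged from 0 to 1 (*KRP1* without Col-0 replicate 2 and *MEE65* without Col-0 replicate 3), and no member was lower under any alternative. The differences of *KRP1*, *SIM*, *CKS1* and *MEE65* kept their sign at both stages under the alternatives that gave a value. Members under a mean of 5 TPM, such as *MEE65*, gave none with that minimum.

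Over all genes in globular seeds, the 454 called higher and 98 lower became 96 and 15 with no filter, 573 and 167 with median-ratio scaling, 0 and 0 without the trend, and 818 and 79 without *vel3-1* replicate 2. At 24HAI the 271 and 111 became 155 and 42 with no filter, 134 and 70 with a minimum of 5 TPM, 273 and 63 without organelle genes, 179 and 66 without *vel3-1* replicate 1, and 474 and 117 without Col-0 replicate 2.

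With the replicate block 1 member was higher at 24HAI, *KRP1* (1.11, adjusted p = 0.0298 from limma), and 0 were called in globular seeds. Under the block 0 of the 9 replication genes passed an adjusted p of 0.05 at 24HAI, where 2 did without it. The correlation of deviations of same-numbered libraries was -0.39, 0.02 and 0.22 at 24HAI and 0.07, 0.18 and 0.31 in globular seeds. Correlations of libraries of unlike number were not set beside them, so these values cannot decide whether the numbers pair the libraries. Beyond the spread of 3 libraries, the level of replicate 3 of *vel3-1* limits what can be read of most members in globular seeds. The 4212 genes listed at 0 in every 24HAI library had a median of 10.0 TPM in it and a 95th percentile of 21.1 TPM. Only 16 of the 85 members, and 0 of the 20 mitotic cyclins, lay above that percentile in this library.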
